A study of Mus musculus with 4 samples.

Results

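Chaperone genes of the heat shock protein (HSP), J-domain (DNAJ), chaperonin (CCT) and BAG families were described in round spermatids, the haploid germ cells that follow meiosis in the testis. They were taken as every listed gene whose symbol begins with Hsp and a digit or a letter from a to h, with Dnaja, Dnajb or Dnajc and a digit, or with Cct2 to Cct8, and the symbols Tcp1 and Bag1 to Bag6. This gave 91 of 25965 listed genes, namely 30 Hsp, 45 Dnaj, 10 Cct or Tcp1 and 6 Bag symbols. The pattern reads symbols, so it also took Hspg2, which encodes the matrix proteoglycan perlecan, and Hspb11, which encodes a protein of intraflagellar transport.

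The cells were sorted by flow cytometry from testes of mice on the outbred ICR background. The comparison sets 2 libraries from mice heterozygous for Wfdc15a (Wfdc15a+/-) against 2 libraries labelled Wfdc15a-/-. All 4 libraries therefore carry at least 1 altered allele, and wild-type animals were not analysed here. The labels give neither the kind of alteration, the age of the mice nor whether 2 libraries of a group came from different animals, so p-values measure the spread between these libraries, which may be technical.

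Hsp70 proteins bind and release short stretches of unfolded protein through cycles of ATP hydrolysis. J-domain proteins bring them substrates and start that hydrolysis, while BAG proteins and the Hsp110 relatives release the nucleotide. Hsp90 acts later, on nearly folded clients, and the CCT ring encloses actin and tubulin as they fold. Male germ cells are known for their own chaperone genes, among them the Hsp70 genes Hspa1l and Hspa2 and the J-domain genes Dnajb3 and Dnajb8. Most other cells keep a second set in reserve, the inducible genes that heat shock factor 1 switches on through repeats of GAA and TTC in their promoters.

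The promoters of both sets are shown first, because inducible genes are known by a repeat in them. RefSeq (build GRCm38.p6, the same assembly as mm10) gave windows from 250 bases before to 50 bases after the start site for 75 of the 91 genes. The printed stretches lie upstream of the RefSeq start, outside every exon of GENCODE M21, and run 5′ to 3′ on the strand of the gene. Capitals mark the paired repeat GAANNTTC, which reads the same on both strands. The 3 inducible genes below hold it, and Hspa1a and Hspa1b are near-copies on chromosome 17.
Hspa1a: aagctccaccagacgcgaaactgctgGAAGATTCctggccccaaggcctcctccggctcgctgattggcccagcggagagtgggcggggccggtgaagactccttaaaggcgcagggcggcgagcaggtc
Hspa1b: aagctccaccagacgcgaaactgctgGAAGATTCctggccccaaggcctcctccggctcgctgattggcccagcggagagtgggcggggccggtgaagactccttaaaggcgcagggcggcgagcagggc
Hspb1: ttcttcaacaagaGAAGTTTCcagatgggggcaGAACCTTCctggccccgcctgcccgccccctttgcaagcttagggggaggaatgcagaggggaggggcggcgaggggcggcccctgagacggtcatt
The 4 germ cell genes hold no such repeat in their windows.
Hspa1l: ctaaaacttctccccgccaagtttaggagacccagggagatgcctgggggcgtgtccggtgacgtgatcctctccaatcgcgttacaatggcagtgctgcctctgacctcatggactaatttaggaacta
Hspa2: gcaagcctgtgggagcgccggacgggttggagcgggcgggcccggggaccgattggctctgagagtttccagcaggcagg
Dnajb3: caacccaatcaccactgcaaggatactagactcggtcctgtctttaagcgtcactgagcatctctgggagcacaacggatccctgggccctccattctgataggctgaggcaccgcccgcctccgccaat
Dnajb8: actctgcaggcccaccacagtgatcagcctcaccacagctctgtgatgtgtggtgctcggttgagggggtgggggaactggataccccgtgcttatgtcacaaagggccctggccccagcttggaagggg
On the minus strand, these stretches lie at chr17:34972157-34972286 (Hspa1a), chr17:34959239-34959368 (Hspa1b) and chr1:88205783-88205912 (Dnajb3). Those on the plus strand lie at chr5:135887789-135887918 (Hspb1), chr17:34972573-34972702 (Hspa1l), chr12:76404290-76404369 (Hspa2) and chr6:88222138-88222267 (Dnajb8). The Hspa2 stretch lies in an intron of the gene as GENCODE M21 draws it, since RefSeq starts the transcript further downstream.

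GAANNTTC occurred in the windows of 9 of 11 inducible genes that had one (Hspa1a, Hspa1b, Hsph1, Dnaja1, Hspb1, Hspb8, Hspd1, Hspe1 and Bag3, but not Dnajb1 or Dnajb4, and downstream of the start for Hsph1, Bag3 and Hspb8) and of 0 of 4 germ cell genes. Among all genes with a window the share was 9.04%, or 7.86% of 32851 windows. Hspd1 and Hspe1, which encode the mitochondrial chaperonin and its lid, share 1 site, because their divergent windows overlap by 285 bases. A longer run of 3 alternating units, searched on both strands, always contains the paired repeat. It was found for Hspd1, Hspe1, Hsph1 and Dnajb6, and in 0.603% of all windows. The cyclic AMP element TGACGTCA was in 0 of the 4 germ cell windows and in 1.79% of all windows. The shorter form, TGACG or CGTCA, which the full element contains, was in 3 of 4 germ cell windows and in those of 6 of 11 inducible and 38 of 75 chaperone genes. Among all genes with a window the share was 23.05%, or 20.8% of all windows. A match is a run of letters, and no binding was measured.

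The targeted gene, Wfdc15a, was read in every library, at 121 and 85.2 RPM in heterozygous libraries and at 82.6 and 59.5 RPM in those labelled knockout (log2 difference -0.53, SE 0.29, limma adjusted p = 0.647). The genotype is therefore given as labelled. RPM scales reads to a common library total, and the libraries held 5774112 to 33853604 reads as recovered from the steps of the deposited values. The 12 round spermatid markers summed to 4428 and 6676 RPM in the heterozygous and 4659 and 4003 RPM in the other libraries. At an unadjusted limma p under 0.05, 4 of them were lower (33.3%, beside 1.87% of all tested genes) and 0 higher. These 4 were Tnp1, Tnp2, Prm1 and Prm2 (log2 differences -1.03, -1.69, -1.42 and -0.71). The log2 difference was positive for 7 of the 12, and Acr, Crem and Tssk1 stood at 0.004, -0.004 and 0.001. The 7 listed spermatocyte markers summed to 310.1 to 603 RPM. Macrophage markers summed to 24.6 and 26.1 RPM in the heterozygous and 365 and 121 RPM in the other libraries, over 15 of 16 symbols found. All 14 tested were higher at an unadjusted limma p under 0.05 (100%, beside 6.21% of all tested genes), with a median log2 difference of 4.90. C1qa, C1qc, Cd14, Cd68, Ctss, Cybb, H2-Aa and Tyrobp were under 1 RPM in both heterozygous libraries. They met the filter of 1 RPM in 2 libraries only through the knockout-labelled pair, so their direction was fixed before the test. Of the 14, 0 passed an adjusted p of 0.05 (smallest limma adjusted p = 0.222), as did 0% of all tested genes. Leydig cell markers summed to 6.41 and 3.16 RPM versus 35.9 and 18.3 RPM, and spermatogonial markers to 59.4 and 52.5 RPM versus 90.1 and 76.5 RPM. Sertoli cell markers were at 20.96 and 42.7 RPM versus 55.7 and 51.7 RPM and peritubular ones at 134 and 31.8 RPM versus 137 and 109.8 RPM, and 0 genes of these lists passed. How reads were assigned can be read from genes nested in others. In 51 of 51 nested pairs without shared exonic bases, 38 of them on opposite strands, the outer gene held at least as many reads as the inner one in every library (inner genes of 500 reads or more). This is the pattern that counting over whole gene spans gives, introns included, on either strand and once for each overlapping gene. The spans of 28 of the 91 chaperone genes overlap another listed gene, and reads there cannot be divided. In sorted bulk samples, fewer cells of a type and less RNA per cell cannot be told apart.

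Among the germ cell members, Hspa2 and Dnajb3 were among the most abundant chaperone transcripts and Hspa1l was far lower, and none separated the groups. Hspa2, a Hsp70 needed for meiosis in males, was read at 785 and 720.4 RPM in the heterozygous pair and 665 and 749.6 RPM in the knockout-labelled pair. The groups overlapped, and the log2 difference was -0.09 (SE 0.19, adjusted p = 0.934). Dnajb3, a small J-domain gene without introns that lies inside the Ugt1a locus, whose spans around it repeat its level, was at 314 and 434 RPM versus 382 and 318 RPM (log2 difference -0.08, SE 0.23, adjusted p = 0.953). Dnajb8, a J-domain protein that holds back aggregation, was at 65.8 and 125 RPM versus 81.9 and 79.7 RPM. Heterozygous library 1 was the lowest and library 2 the highest of the 4, with both knockout-labelled libraries between them. Hspa1l, the testis Hsp70 most like the inducible ones, was at 23.7 and 66.8 RPM versus 48.7 and 36.2 RPM, again with the extremes in the heterozygous group.

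Hspa1l and Dnajb8 thus varied more within the heterozygous pair than between the groups. Their heterozygous libraries stood 1.49 and 0.93 apart on the log2 scale, while the group differences were 0.08 (SE 0.44, adjusted p = 0.981) and -0.17 (SE 0.32, adjusted p = 0.926). The sign for Hspa1l was negative with voom weights (-0.16), and the means of Hspa1l ran against its log2 difference (45.2 RPM heterozygous, 42.5 RPM knockout-labelled). Both genes share exonic bases with a listed gene on the other strand, 1778 of 2472 for Hspa1l with Gm10501 and 525 of 1411 for Dnajb8 with 1700031F10Rik, and those genes held 0.958 and 0.890 times as many reads. The median difference of the 4 genes was -0.09, and it was -0.47 without heterozygous library 1 and 0.22 without heterozygous library 2.

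Inducible members ranged from very abundant to almost unread. Hsp90aa1, the inducible Hsp90, was the second most abundant chaperone gene per kb of exon, at 2413 and 1794 RPM in the heterozygous pair and 2195 and 2268 RPM in the knockout-labelled pair. Heterozygous library 2 was the lowest and library 1 the highest, and 58.5% of the 50-base words of this transcript also occur in other transcripts, chiefly Gm12346. Dnajb1, the J-domain partner of inducible Hsp70, was at 182 and 189.8 RPM versus 157 and 143 RPM, with both heterozygous libraries above the others (log2 difference -0.31, SE 0.22, adjusted p = 0.742). Hsph1, a Hsp110 nucleotide exchange factor, was at 44.9 and 40.8 RPM versus 48.7 and 57.1 RPM, the opposite order (log2 difference 0.30, SE 0.28, adjusted p = 0.816). Dnaja1 was at 236 and 188 RPM versus 246 and 242 RPM, and Dnajb4 at 190.5 and 164 RPM versus 146 and 163.5 RPM.

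The classical heat shock transcripts were close to absent in all 4 libraries. Hspa1b had 6 and 24 reads in heterozygous and 14 and 9 reads in knockout-labelled libraries, which is 1.04 and 0.709 RPM versus 0.662 and 0.799 RPM. Hspa1a had 0 and 19 reads against 3 and 20 reads, or at most 1.77 RPM, and the count of 0 in heterozygous library 1 allows up to 0.520 RPM. Hspb8, a small heat shock protein that works with Bag3, had 0 and 2 reads against 8 and 8 reads. These 3 genes did not reach 1 RPM in 2 libraries and were not tested, which left 9 of 12 inducible genes.

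Low but measurable levels were found for 4 more, of which Hspb1 and Hspd1 share 51.7% and 44.8% of their 50-base words with other genes, mainly the pseudogenes Hsp25-ps1 and Hspd1-ps3. Hspb1, a small heat shock protein, was at 1.56 and 3.19 RPM versus 1.37 and 3.11 RPM, and the libraries numbered 2 were the higher of each group. Bag3, which links Hsp70 to selective autophagy, was at 12.5 and 15.6 RPM versus 14.7 and 18.6 RPM. Hspd1 was at 6.23 and 8.33 RPM versus 14.8 and 7.72 RPM, and Hspe1 at 9.35 and 7.47 RPM versus 13.8 and 5.86 RPM, so knockout-labelled library 1 was the highest for both genes of this divergent pair and library 2 lay within or below the heterozygous values.

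Of the 9 tested inducible genes, 0 passed the limma test at an adjusted p of 0.05, as did 0% of all tested genes. None was at an unadjusted p under 0.05, which 6.21% of all tested genes were with a higher and 1.87% with a lower value. Both knockout-labelled libraries lay above both heterozygous ones for 2 of the 9 and below for 2, beside 23.5% and 15% of all tested genes. Their median log2 difference was 0.10, beside -0.09 for the germ cell members, 0.03 for all tested chaperone genes and 0.07 for all tested genes. The inducible median was 0.27 without heterozygous library 1 and 0.05 without heterozygous library 2. No test of the gap between the lists was made, since their members were chosen with results of these data known.

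**Figure D1:**
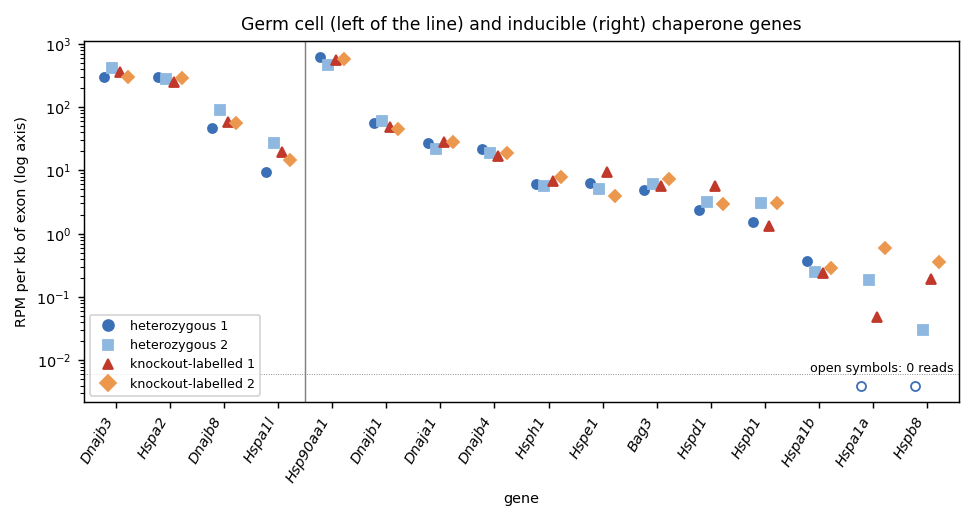
RPM per kb of exon on a log axis for the 4 germ cell and 12 inducible chaperone genes, 1 symbol per library and open symbols for 0 reads. Dnajb3, Hspa2 and Hsp90aa1 lie above 200 in every library, while Hspa1a, Hspa1b and Hspb8 lie below 1.

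Levels of different genes were compared per kb of exon, with exon lengths from GENCODE M21, which overstates genes with many intronic reads, and then per kb of the whole span, which understates genes with long introns. The median germ cell gene was at 169 RPM per kb of exon (177 of span) and the median inducible gene at 6.09 (1.79 of span). The sums of the lists were closer, because Hsp90aa1 makes up most of the inducible one. Germ cell members summed to 0.879 to 1.38 times the inducible sum per kb of exon in the 4 libraries, and to 2.39 to 3.67 times per kb of span. In RPM without length, the germ cell sum was 1178 to 1346 and the inducible sum 2413 to 3097. Hspa1l and Hspa1a stand back to back on chromosome 17 with 547 bases between their RefSeq starts, and Hspa1b lies beside them. Hspa1l exceeded the sum of Hspa1a and Hspa1b per kb by 25.9-fold and 61.1-fold in heterozygous and by 69.4-fold and 16.6-fold in knockout-labelled libraries. Per kb of span it was 6.21-fold to 26.1-fold. The sum rests on 6 to 43 reads per library. Hspa1a and Hspa1b share 58.8% of the 50-base words of the Hspa1a transcript, and 98.8% of 250 upstream bases, so reads can be divided between them or dropped as ambiguous, depending on the counting rule, which no source used here gives. Hspa1a also shares 564 exonic bases with Gm20481 on the other strand.

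Germ cell or testis forms also led related genes in the pairs given next, which were picked with results of these data known. Dnajb1, set beside Dnajb3 here, is one of the inducible genes above. Cct8l1, a Cct8-like gene, did not lead Cct8 per kb of exon, at no more than 44.6 RPM against no less than 94.5 RPM. Per kb of span it did, at a mean of 31.5 against 24.9 RPM. Cct6b, the testis form of a CCT subunit, stood at 617 and 579 RPM in the heterozygous pair and 553 and 650.4 RPM in the knockout-labelled pair, and Cct6a at 201 and 198 against 181 and 224.6 RPM. The ratio of Cct6b to Cct6a per kb of exon was 5.60 to 5.94 in the 4 libraries, and 3.75 to 3.98 per kb of span. Of the 50-base words of Cct6a, 16.8% also occur in Psph transcripts. Dnajb3 exceeded Dnajb1 by 5.25-fold to 7.43-fold per kb of exon (6.32-fold to 8.93-fold of span), and the 2 knockout-labelled ratios (7.43 and 6.79) fell on both sides of that in heterozygous library 2 (6.97). Hspa4l, a testis-rich Hsp110 relative, was at 1083 and 1112 RPM versus 1133 and 1338 RPM and exceeded Hspa4 by 1.23-fold to 1.42-fold per kb of exon and 2.07-fold to 2.38-fold per kb of span.

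Further members known from testis were mostly abundant. Hspb9, a testis-restricted small heat shock protein, an intronless gene, was next to Hsp90aa1 in the order per kb of exon and first per kb of span, at 335 and 383 RPM versus 424 and 318 RPM. Dnajb13, a J-domain protein of the sperm axoneme, was at 318 and 408 RPM versus 495 and 390.4 RPM. Dnajb7 was at 52.1 and 63.6 RPM in the heterozygous pair and 89.2 and 83.8 RPM in the knockout-labelled pair. Both of the latter lay above both of the former, with a log2 difference of 0.59 (SE 0.26, unadjusted p = 0.0478, adjusted p = 0.613). It lies in an intron of Xpnpep3, which held 1.24 times as many reads. Dnajc5b and Dnajc5g, relatives of the cysteine string protein, stayed within 113 to 167 RPM in all libraries and did not separate the groups.

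The CCT ring had the largest summed level of the member lists, and its subunits were not read at equal levels. The 8 ring genes summed to 7552 and 6725 RPM in the heterozygous pair and 7367 and 7727 RPM in the knockout-labelled pair (7139 ± 584 against 7547 ± 254 RPM, mean ± SD, n = 2 each, exact two-sided permutation p = 0.667, a test of 2 libraries with 2 that cannot reach 0.05), which was 33.9% to 35.7% of all reads of chaperone genes. Tcp1, the alpha subunit, led all 91 genes per kb of exon, at 3239 and 2557 RPM versus 2903 and 3118 RPM. Cct4 lay at 879 to 1048 RPM and Cct7 at 981 to 1210 RPM. Tcp1 exceeded Cct6a, the lowest of the 8, by 10.6-fold per kb of exon and 91.6-fold per kb of span. The listed span of Cct6a is 16.1 times its exonic length and that of Tcp1 1.86 times, so the second ratio rests largely on span length.

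Of the 8 CCT genes, 1 (Cct2) differed between the groups by more than the gap between libraries in both of them (12.5%, beside 25.4% of all tested genes). Cct5 was at 491 and 501 RPM versus 641 and 538 RPM (log2 difference 0.24, SE 0.20, adjusted p = 0.783) and Cct2 at 431 and 487 RPM versus 499.4 and 576 RPM (0.23, SE 0.20, adjusted p = 0.802), both above both heterozygous libraries. Cct8 was at 352 and 308 RPM versus 301 and 292 RPM, below both. The median of the 8 genes was 0.06, and it was -0.03 without heterozygous library 2 and 0.13 without heterozygous library 1. Exonic bases of Tcp1 overlap Mrpl18 and Acat3, and those of Cct8 overlap Usp16, on the other strand.

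**Figure D2:**
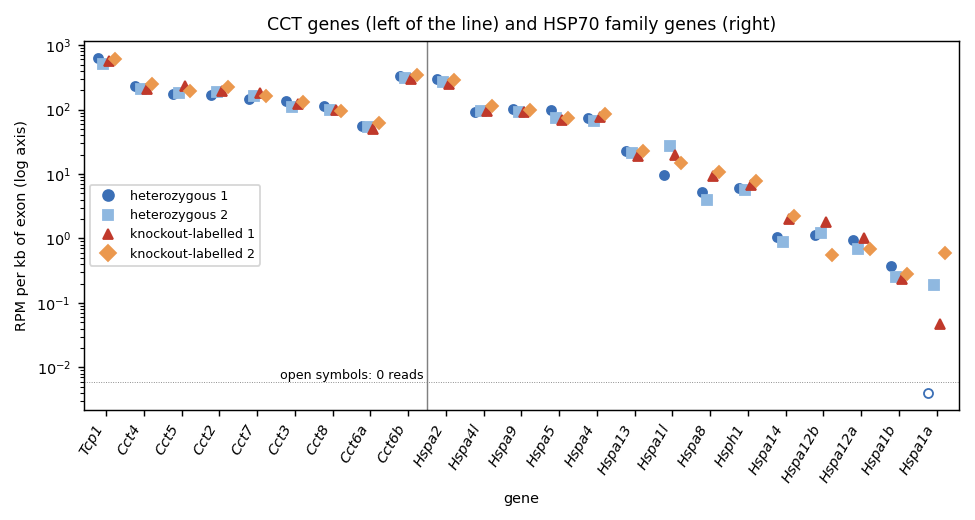
RPM per kb of exon on a log axis for the 8 CCT ring genes with Cct6b (left) and the 14 HSP70 family genes (right), 1 symbol per library. Tcp1 leads the ring and Hspa2 the HSP70 family, and Hspa1a and Hspa1b are last.

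Within the HSP70 family, Hspa2 led and the constitutive Hspa8 was low. Hspa8, the Hsc70 that most somatic cells make in large amounts, was at 22.5 and 17.0 RPM in the heterozygous pair and 39.6 and 45.9 RPM in the knockout-labelled pair. Both of the latter lay above both of the former, and the means of 19.7 ± 3.91 and 42.7 ± 4.47 RPM (SD, n = 2 each) differed 2.16-fold. The log2 difference was 1.12 (SE 0.32, 95% confidence interval 0.42 to 1.82, unadjusted p = 0.00477), the smallest p of any chaperone gene, but it did not pass over all genes (limma adjusted p = 0.453). Without heterozygous library 1 the log2 difference was 1.33, in a fit where the lone library is taken to vary like the other group. The adjusted p was 0.112 to 0.545 over the alternatives that kept all 4 libraries.

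Hspa2 exceeded Hspa8 per kb of exon by 56.7-fold and 69.0-fold in heterozygous and by 27.4-fold and 26.6-fold in knockout-labelled libraries. Hspa8 shares 52.6% of its 50-base words with transcripts of 15 other genes, chiefly Gm15459, so its reads can be divided among them or dropped. The macrophage markers given above lay higher in the same libraries. Of 15 found, 7 and 2 had 0 reads in heterozygous libraries 1 and 2, and 0 in the others. All 14 tested macrophage markers lay above both heterozygous libraries (beside 23.5% of all tested genes). The filter fixed this in advance for those named above as under 1 RPM in both heterozygous libraries. Their sum was highest in knockout-labelled library 1 and Hspa8 in library 2. Of tested Leydig and spermatogonial markers, 3 of 4 and 4 of 8 lay above both, and their sums were also highest in knockout-labelled library 1. The Leydig marker Insl3 was under 1 RPM in both heterozygous libraries, so the filter fixed its direction too. Of 14 tested immediate early genes, 10 lay above both heterozygous libraries (71.4%, beside 23.5% of all tested genes). At an unadjusted limma p under 0.05, 9 were higher and 0 lower (64.3% and 0%, beside 6.21% and 1.87%). Fos, Atf3, Btg2, Klf6 and Zfp36, counted as higher both times, were under 1 RPM in both heterozygous libraries. The filter fixed their direction in advance. Of the 14, 0 passed (smallest limma adjusted p = 0.202), and the list summed to 92.0 and 106 RPM versus 193 and 171 RPM. The part of other cells or of a stress response in the Hspa8 value was not tested.

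Hspa14, a ribosome-associated Hsp70, followed the same order at a lower level, 4.33 and 3.57 RPM versus 8.13 and 9.14 RPM (log2 difference 1.13, SE 0.46, unadjusted p = 0.0334, adjusted p = 0.596), and shares 15.6% of its words with Gm45902. Hspa4 was at 405 and 367 RPM versus 431 and 478 RPM (0.23, SE 0.20, adjusted p = 0.793). Of the 8 constitutive cytosolic genes, 5 were higher in both knockout-labelled libraries than in both others and 0 lower in both (62.5% and 0%, beside 23.5% and 15% of all tested genes), with a median of 0.28 that was 0.17 without knockout-labelled library 1. The other members above were Hsp90ab1, the constitutive Hsp90, at 123 and 113 RPM versus 170.4 and 128 RPM, and Dnajb2, at 94.2 and 125.4 RPM versus 145.5 and 127 RPM. Of the 12 tested genes of the HSP70 family, 5 lay above both heterozygous libraries, 1 (Hspa5) below (41.7% and 8.33%, beside 23.5% and 15%), and the median was 0.05, or 0.02 to 0.17 when 1 library was left out. The lists overlap. Hspa8, Hspa14 and Hspa4 are counted as higher in both, and Hsph1 of the HSP70 family also among the inducible genes, so the shares are not separate observations.

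The whole set of chaperone genes was then read against all genes. Of 91 members, 85 reached 1 RPM in at least 2 libraries and were tested, and 40 were at 100 RPM or more in all 4. The 6 that were not tested are Hspa1a, Hspa1b, Hspb2, Hspb3, Hspb8 and Dnajc22, and Hspb3 had 0 reads in all 4 libraries. All 91 summed to 21592 and 19860 RPM in the heterozygous pair and 20920 and 21625 RPM in the knockout-labelled pair, with means of 20726 ± 1225 and 21272 ± 499 RPM (SD, n = 2 each, exact two-sided permutation p = 0.667, a test of 2 libraries with 2 that cannot reach 0.05).

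Of the 85 tested genes, 0 passed the limma adjusted p of 0.05, as did 0% of the 15888 genes tested. At an unadjusted p under 0.05, 6 were higher (7.06%, beside 6.21% of all tested genes) and 2 lower (2.35%, beside 1.87%). Voom on the recovered reads also gave 0 passing members, with 7 higher and 3 lower at an unadjusted p under 0.05. Both knockout-labelled libraries lay above both heterozygous ones for 18 members (21.2%, beside 23.5%) and below both for 17 (20.0%, beside 15%). These shares lie near those of all genes. Bag2, counted as higher each time, met the filter only through the knockout-labelled pair.

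Most members differed little, and 4 libraries left wide intervals. The log2 difference was within 0.25 of 0 for 54 of 85 and beyond 0.5 for 17. The 95% confidence interval lay between -1 and 1 for 53, and its median half-width was 0.61. The median absolute difference was 0.18 for the members and 0.34 for all tested genes, and the median gap between the 2 heterozygous libraries was 0.34 against 0.49. Members had a median level of 88.1 RPM and all tested genes one of 12.7 RPM, and the differences of genes with few reads scatter more. The difference exceeded the gap between libraries in both groups for 20 of 85 members (23.5%, beside 25.4% of all tested genes).

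**Figure D3:**
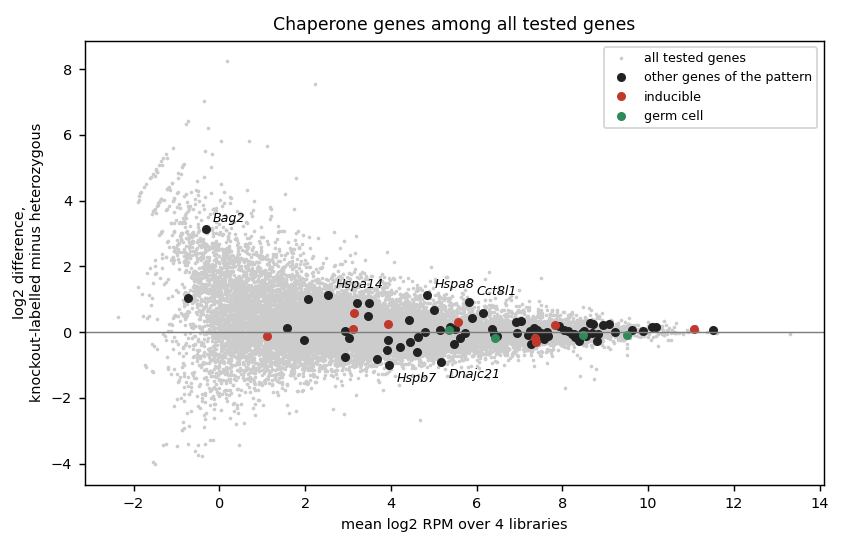
Log2 difference (knockout-labelled minus heterozygous) against mean log2 RPM over 4 libraries for all 15888 tested genes (grey) and the 85 tested chaperone genes, coloured by list, with the 6 smallest p named. Abundant members lie near 0 and Bag2, the member furthest from it at 3.12, has few reads.

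Besides Hspa8, Hspa14 and Dnajb7, 5 genes were at an unadjusted p under 0.05. Dnajc21, a J-domain protein of ribosome maturation, was at 52.1 and 47.2 RPM in the heterozygous pair and 25.9 and 26.8 RPM in the knockout-labelled pair. The values of each pair were close, and the groups stood 1.89-fold apart (log2 difference -0.91, SE 0.29, unadjusted p = 0.00941, adjusted p = 0.532). Hspb7, a small heat shock protein best known from muscle, was at 27.0 and 18.3 RPM versus 11.01 and 11.004 RPM (-1.01, SE 0.37, adjusted p = 0.569). Dnajc11, of the mitochondrial inner membrane organising system, was at 8.31 and 8.30 RPM versus 14.7 and 16.2 RPM (0.89, SE 0.38, adjusted p = 0.596).

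Cct8l1, a Cct8-like gene, was at 27.0 and 63.2 RPM versus 87.5 and 68.8 RPM, and heterozygous library 2 lay closer to the other group than to library 1 (0.91, SE 0.38, adjusted p = 0.596). Without heterozygous library 2 the log2 difference of Cct8l1 was 1.52, in a fit where the lone library is taken to vary like the other group. Bag2, which inhibits the ubiquitin ligase that works with Hsp70, had 0 and 16 reads against 43 and 31 reads, or 0 and 0.473 RPM versus 2.03 and 2.75 RPM (3.12, SE 1.20, adjusted p = 0.585). That difference depends on the level given to 0 reads and was 1.47 with log2(RPM + 1). Bag2 met the filter of 1 RPM in 2 libraries only through the knockout-labelled pair, so its direction was fixed before the test. Next by p were Dnajc24, which takes part in diphthamide synthesis, at 18.4 and 15.6 RPM versus 10.3 and 8.96 RPM (adjusted p = 0.616), whose span overlaps that of BC048594 with nearly the same reads, and Hspg2 at 5.37 and 8.51 RPM versus 17.2 and 9.14 RPM (adjusted p = 0.638).

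**Figure D4:**
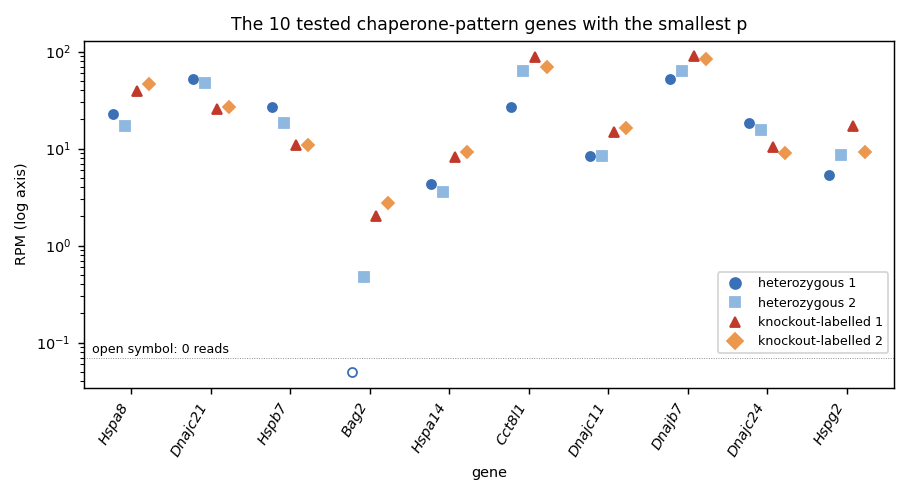
RPM on a log axis in each library for the 10 tested genes of the symbol pattern with the smallest limma p, 1 symbol per library and an open symbol for 0 reads. The groups do not overlap for any of the 10, which follows largely from picking them by p and adds no support. None passed an adjusted p of 0.05.

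Chaperones of the endoplasmic reticulum and mitochondria had medians of -0.10 and -0.01 over 9 tested genes each. Hspa5, the Hsp70 of the endoplasmic reticulum, was at 424 and 319 RPM versus 290.5 and 316 RPM, and Hsp90b1, its Hsp90, was at 671 and 322 RPM versus 380 and 524 RPM, with the heterozygous libraries at both extremes. The median of the endoplasmic reticulum list was -0.40 without heterozygous library 2 and 0.10 without knockout-labelled library 1, and the mitochondrial one was 0.01 with quantile normalization and -0.12 to 0.08 with 1 library left out. Dnajb11, a J-domain partner of Hspa5, was at 57.3 and 46.3 RPM versus 65.5 and 72.2 RPM, above both, whereas Dnajc10, a J-domain disulfide reductase, was at 201 and 151 RPM versus 130.5 and 139.9 RPM, below both. Dnajc25 was also below both, at 22.5 and 14.9 RPM versus 12.2 and 12.7 RPM, and Dnajc1 overlapped, at 34.5 and 18.8 RPM versus 30.2 and 54.7 RPM. Dnajc25 shares most of its span with Gm20503, and Dnajc1 a part with Mllt10. The smallest adjusted p among these 4 was 0.677. Dnajc15, of the mitochondrial import motor, was at 530.3 and 467 RPM versus 452 and 368.5 RPM, while Dnajc19, its relative, was at 237 and 220.3 RPM versus 236 and 284 RPM, over a span of which 52.7% is shared with Fxr1.

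The 6 BAG genes ranged widely in level. Bag5 was at 341 and 448 RPM versus 349 and 364 RPM, Bag6, a factor for membrane proteins that is needed for male fertility, at 259 and 384 RPM versus 324 and 285 RPM, and Bag1 at 192 and 214 RPM versus 177 and 176 RPM. Bag1 was below both heterozygous libraries in both others (log2 difference -0.20, SE 0.22, adjusted p = 0.854). Of the 7 small heat shock genes of the list, 4 were tested. Hspb9 dominated them, and Hspb6 was at 23.9 and 19.3 RPM versus 15.1 and 16.6 RPM.

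Among partners outside the symbol pattern, 0 passed a limma adjusted p of 0.05 in any list. Of 5 heat shock factors, 4 were tested, and 1 was higher and 0 lower at an unadjusted p under 0.05 (beside 6.21% and 1.87% of all tested genes). Hsf1, the main activator of inducible genes, was at 29.8 and 32.4 RPM versus 30.4 and 29.4 RPM (log2 difference -0.05, SE 0.30, adjusted p = 0.980), and Hsf2 at 174 and 139 RPM versus 120.5 and 145 RPM. Hsfy2, a testis heat shock factor relative, was at 63.2 and 94.5 RPM versus 127 and 147 RPM, with both knockout-labelled libraries above the others (0.82, SE 0.27, unadjusted p = 0.0124, adjusted p = 0.544).

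Of 18 co-chaperones of Hsp90, all tested, 2 were higher and 0 lower at an unadjusted p under 0.05 (11.1% and 0%, beside 6.21% and 1.87%), and the median was 0.00. These were Fkbp6, a germ cell immunophilin, at 14.4 and 12.7 RPM versus 26.1 and 24.8 RPM (0.91, SE 0.33, adjusted p = 0.578), and Unc45a, a myosin chaperone, at 0.866 and 0.413 RPM versus 3.31 and 2.48 RPM (2.26, SE 0.91, adjusted p = 0.591). Unc45a met the filter only through the knockout-labelled pair, so its direction was fixed before the test. Stip1, which joins Hsp70 to Hsp90, was at 161 and 161 RPM versus 116 and 124 RPM (-0.43, SE 0.23, adjusted p = 0.646). Of 12 prefoldin and CCT partner genes, 10 were found and tested and 0 were at an unadjusted p under 0.05. Pdcl2, a spermatid phosducin-like protein that assists CCT, was the most abundant of them, at 1211 and 732 RPM versus 693 and 1036 RPM.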

How the data were processed

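Round spermatids were lysed and amplified with Smart-seq2 using 15 PCR cycles and tagmented, per the labels' protocols. Per the submitters' processing notes, the authors used HISAT2 2.1.0 with mm10, along with Trim Galore 0.6.6 and FastQC 0.11.8. The counting tool and its annotation were not given in the sources used here. Nested genes show the pattern of unstranded counts over whole gene spans, and how multiply aligned reads were treated is unknown. The authors deposited values named log2 RPM. That they are scaled to each library's total without gene length was taken from this name and from their steps. Values step by whole reads, and the lowest equals 0.9 of a read. On that basis 99.7% to 100.0% of the other values were whole within 0.01. The protocol gives no molecular identifiers, and PCR copies are not separate molecules, so a limit of 3 reads for a count of 0 covers counting error only.

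The 15888 genes that reached 1 RPM in 2 or more libraries were fitted on the deposited values in R 4.3.3 by limma 3.58.1, allowing a variance trend, and two-sided p-values were adjusted over all of them by Benjamini-Hochberg. Fold changes are ratios of mean RPM. Exonic lengths and overlaps came from GENCODE M21, where all 91 symbols were found at an overlapping position, and 21 shared exonic bases with another listed gene. RPM per kb of exon can be overstated by intronic reads and understated where exon unions hold untranslated parts that spermatids may not use, so RPM per kb of gene span was added as an alternative after seeing the data. A shared 50-base word is one found on either strand in a transcript of another gene. Members, lists and tests were chosen with earlier results of these data known. The text names germ cell and inducible members, the 10 smallest p, the 10 highest per kb and up to 4 by p from each other list. Dnajc5b, Dnajc5g, Dnajb6, Hspb11, Bag6, Cct6a and the partner genes were named after their values were seen. In 3 simulated sets of 15888 genes, limma recovered 5.67% of genes changed by 1 and 57% of those changed by 2 on the log2 scale. There were 4 false calls among 192. Every simulated gene was given the same assumed spread, not one fitted to these data, so the rates do not describe the chaperone genes. Python 3.11.15, pandas 2.3.3 and matplotlib 3.10.9 were used. Alternatives were quantile and median-ratio scaling, log2(RPM + 1), a common lowest value, no filter and one of 5 RPM, no variance trend, array weights, voom on recovered reads, a replicate block and leaving out each library.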

Additional observations from a re-analysis of the deposited data

How the results depend on the processing

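Across 14 alternatives, 47 named chaperone genes gave 656 values, of which 629 kept their direction and side of the threshold, and 35 genes never changed sign. Genes passing an adjusted p of 0.05 (0 in the reported analysis) were 1 with log2(RPM + 1), 180 with no filter, 66 with the replicate block and 0 to 558 when 1 library was left out (442 without heterozygous library 1, 558 without heterozygous library 2). Passing chaperone genes stayed at 0 with all 4 libraries, and the log2 differences of Hspa8 and Cct8l1 with 1 heterozygous library left out are given above. Of the chaperone genes at an unadjusted p under 0.05, the 6 higher became 3 with quantile normalization, 3 with the replicate block and 2 to 7 with 1 library left out, and the 2 lower became 1 to 7. The median of all tested chaperone genes was -0.0047 with median-ratio scaling and 0.0032 to 0.053 with 1 library left out, that of the germ cell genes -0.47 to 0.22 and that of the inducible genes 0.049 to 0.27. With length taken as the whole gene span, an alternative chosen after seeing the data, the median level was 177 RPM per kb for germ cell and 1.79 for inducible genes. Sign changes with all libraries were Cct4 (-0.0047) and Cct6b (-0.026) with median-ratio scaling, Hsp90b1 (0.052) and Hspa1l (-0.16) with voom and Hspe1 (-0.061) with quantile normalization. With 1 library left out, the ranges that crossed 0 were Bag5 -0.33 to 0.064, Cct4 -0.11 to 0.16, Cct6b -0.11 to 0.12, Dnajb3 -0.32 to 0.15, Dnajb8 -0.63 to 0.30, Hsp90aa1 -0.11 to 0.31, Hsp90b1 -0.59 to 0.47, Hspa1l -0.67 to 0.82, Hspb1 -0.70 to 0.48, Hspb9 -0.17 to 0.25, Hspe1 -0.51 to 0.72 and Tcp1 -0.11 to 0.23. A lone library is taken to vary like the other group. The causes were not tested. Same-numbered libraries shared no pairing in the labels, and their deviations from the group means correlated at -0.0761 over all genes, so the replicate block is only an alternative. Totals differed 5.86-fold, and a count of 0 in the shallowest library allows 0.520 RPM.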
